A study of Rattus norvegicus and Mus musculus with 61 samples.

Results

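Sham-operated cortex was set against the cortex of naive mice, and the 4 sham times were set against each other. All mouse arrays whose labels name sham surgery were taken (8 arrays) together with all mouse naive arrays (2 arrays), which made 10 of the 61 arrays in the series. The sham groups were cortex collected 4, 8, 24 and 72 h after sham surgery, with 2 arrays at each time, and the naive group had 2 arrays. Sham mice were male C57BL/6 of 20 to 25 g that had received isoflurane in oxygen. Naive mice were of the same strain, sex and weight, and their label names no anaesthesia and no surgery. No label gives an age or says what the sham operation consisted of. Each array was hybridised with RNA of 3 mice, since 3 cortical disks of 4 mm from the parieto-occipital region were pooled before extraction. The sham titles of a time carry the number 1 and differ in a letter, so that separate pools of mice were assumed. The p-values rest on array-to-array spread, which may be technical. The 12 mouse arrays after controlled cortical impact entered the same model, to estimate the spread, and are named where their values stand beside those of sham cortex.

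A sham operation is the control for a brain injury model: the animal is anaesthetised and operated on without the injury itself. Cutting skin and handling bone and dura, anaesthesia and stress each act on the brain by known routes, among them release of glucocorticoids and cytokines and the firing of neurons. Neuronal firing switches on immediate early genes such as Fosb within minutes to hours, and inflammatory signals switch on acute-phase genes such as Cebpd and Socs3. Naive cortex is the state that such a control is usually assumed to resemble.

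The deposited signals had been brought to 1 scale, as the 2% trimmed mean was 800.3 to 800.5 over the 10 arrays. The median signal was 290 to 333.7 on sham arrays and 297.1 to 318.8 on naive arrays. After a floor at a signal of 24.1 and a filter on dim probe sets, 6499 genes were tested, each as a log2 difference with its standard error (SE) from limma. A gene was called when its Benjamini-Hochberg adjusted p over all 6499 genes was below 0.05. Only 2 arrays stood in each group, which limits the precision of every value below.

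Some arrays stood apart. The 2 sham 72 h arrays correlated at r = 0.947 on the log2 scale, against 0.965 to 0.969 for the other pairs of one group, and replicate 1d of this pair had the lowest median correlation with the uninjured arrays (0.949). Both sham 4 h arrays held transcripts of the pituitary gland, which is not part of the cortex. The summed signal of 19 neuron markers, which show neural tissue but do not tell cortex from other brain regions, was 109000 to 137000 on sham arrays and 137900 to 147900 on naive arrays. The titles of both naive arrays carry the letter a and those of sham arrays b, c or d, so that a batch marked by the letter, whose meaning is not stated, cannot be told apart from sham against naive.

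Prolactin (Prl), the milk hormone of pituitary lactotrophs, had signals of 8269 and 8861 at sham 4 h, 417 and 193 at 8 h, 296 and 346 at 24 h, 158 and 269 at 72 h, and 312 and 346 in naive cortex. Pro-opiomelanocortin (Pomc), the precursor of corticotropin, had 4516 and 6029 at sham 4 h, at most 327 on the other sham arrays, and 299 and 179 in naive cortex. Cga, the alpha subunit shared by the glycoprotein hormones, had 2951 and 3328 at sham 4 h, at most 321 on the other sham arrays, and 254 and 170 in naive cortex. In these 3 genes both sham 4 h arrays lay far above all other uninjured arrays.

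Of 17 pituitary list genes, 13 were on the array and 10 passed the filter, and 5 were called higher at sham 4 h than in naive cortex: Prl, Pomc, Cga, the luteinising hormone subunit Lhb (1952 and 1939, against 781 and 534) and Dlk1 (1883 and 1807, against 708 and 727). Over all 6499 tested genes 20 (0.308%) were called higher at this time. The list was chosen with the high signals at sham 4 h already known. Its count and its summed signal therefore describe these arrays and are no separate support for a rise. Tshb, the thyrotropin subunit, had 290 and 269 at sham 4 h and 68 and 26 in naive cortex (adjusted p = 0.11). It passed the filter on dim probe sets through the sham 4 h pair alone, as its signal was at most 120 on injury arrays and 59 on later sham arrays. Its place among the 10 genes and in their sum therefore rests on its being high at sham 4 h, and is no further support for a rise. Growth hormone (Gh) ran the other way, with 521 and 305 at sham 4 h and 937 and 805 in naive cortex (log2 difference -1.12 ± 0.24 SE, adjusted p = 0.031), and it was not called without naive 2a (0.121), naive 1a (0.256) or sham 4 h 1c (0.422). The call of Dlk1 was lost without any 1 of the 4 arrays (adjusted p 0.0865 to 0.17). The summed signal of the 10 genes was 26850 and 27400 at sham 4 h, 6643 to 8276 on the other sham arrays, and 8278 and 6994 in naive cortex. The pituitary genes stayed in the fit and are set aside in what follows. Whether other genes of the sham 4 h arrays came with this RNA was not tested.

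**Figure D1:**
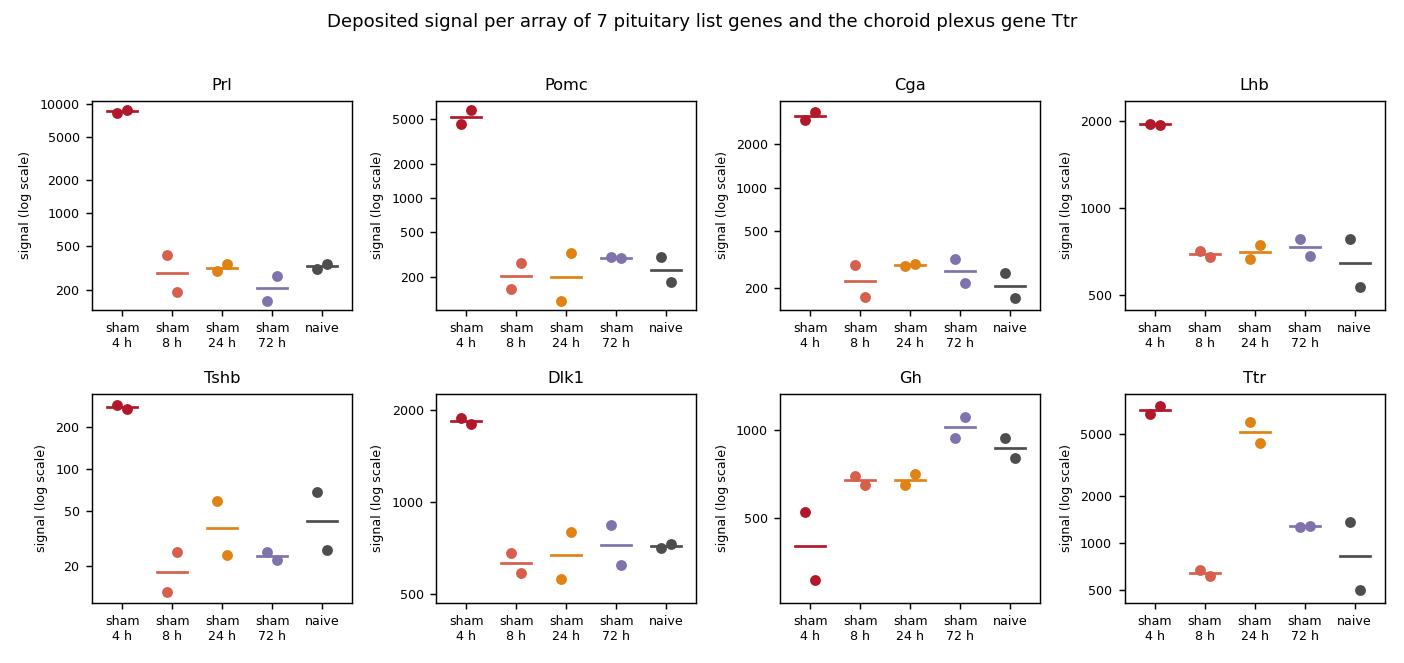
Each point is the deposited signal of 1 array (log scale) for 7 pituitary list genes and the choroid plexus gene Ttr, at 4 sham times and in naive cortex, and each bar is the geometric mean of the 2 arrays. Prl, Pomc, Cga, Lhb, Tshb and Dlk1 are high on both sham 4 h arrays and near naive at 8, 24 and 72 h, while Gh is lowest at sham 4 h and Ttr is high at sham 4 h and 24 h.

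Averaging the 4 sham times and setting them against naive cortex asked what any sham operation leaves in the cortex, whatever the time. Few genes met the threshold: Lbp, Slc2a1 and Ptov1 rose and Ywhaz fell, 4 of 6499 genes (0.0615%), while 656 genes had an unadjusted p below 0.05. The median log2 difference of all tested genes was -0.00185. For the 3 rises all 8 sham arrays lay above both naive arrays. For Ywhaz the groups overlapped.

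Lbp encodes lipopolysaccharide-binding protein, an acute-phase protein that carries bacterial endotoxin to its receptor. Its signals were 864 and 850 at sham 4 h, 812 and 546 at 8 h, 678 and 664 at 24 h, 475 and 443 at 72 h, and 319 and 121 in naive cortex. The lowest sham array, at 72 h, was still above the higher naive array, and the naive pair itself differed widely. The sham mean was higher by 1.72 ± 0.28 SE on the log2 scale, a 3.29-fold difference (limma adjusted p = 0.0259). Without naive replicate 2a, the lower of the pair, the difference was 1.02 and the call was lost (adjusted p = 0.448), as it was without sham 4 h 1b (0.0693).

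Slc2a1 encodes GLUT1, the glucose transporter of the blood-brain barrier endothelium and of astrocytes. It had 1634 and 1791 at sham 4 h, 809 and 812 at 8 h, 1192 and 950 at 24 h, 742 and 581 at 72 h, and 485 and 538 in naive cortex. The signal was highest at 4 h and closest to naive at 72 h, with no overlap between sham and naive arrays at any time. The sham mean was 0.96 ± 0.16 SE higher (1.94-fold, adjusted p = 0.0259). Without the sham 4 h arrays the difference was 0.7 and was no longer called (adjusted p = 0.217). The call was also lost without naive 2a (adjusted p = 0.209), naive 1a (0.167), sham 4 h 1b (0.0693) or sham 8 h 1b (0.051).

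Ptov1 encodes a regulator that associates with the Mediator complex and was first described in prostate cancer. Its signals were 4494 and 4134 at sham 4 h, 4164 and 3858 at 8 h, 8351 and 6163 at 24 h, 8921 and 10421 at 72 h, and 3449 and 2581 in naive cortex. The 24 and 72 h arrays lay above all other uninjured arrays. The sham mean was 0.98 ± 0.17 SE higher (1.97-fold, adjusted p = 0.0259), and at 72 h the difference from naive was 1.69 ± 0.21 SE (3.23-fold, adjusted p = 0.00102). The 2 probe sets of this gene disagreed in size. The brighter one, named with the suffix _s_at that the array maker gave to probes shared between transcripts, was used, and the other differed by 0.23 between sham and naive cortex. With the probe sets averaged, the sham mean was 0.61 higher and the call was lost (adjusted p = 0.171). The call over all sham times was also lost without naive 2a (adjusted p = 0.453), sham 4 h 1b (0.0711), sham 72 h 1d (0.0566) or sham 8 h 1b (0.051).

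Ywhaz encodes 14-3-3 zeta, an abundant adaptor protein that binds phosphorylated partners. It had 3176 and 4509 at sham 4 h, 5621 and 7785 at 8 h, 5787 and 3087 at 24 h, 17127 and 11504 at 72 h, and 17263 and 15001 in naive cortex. The arrays of the first 3 times were below naive, and 1 of the 72 h arrays was not. The difference of -1.37 ± 0.25 SE (adjusted p = 0.0398) was -1.13 and not called after quantile normalization (adjusted p = 0.141). It was also lost without either naive array (adjusted p = 0.209 and 0.222) and without sham 4 h 1b (0.0829), 8 h 1b (0.051), 24 h 1d (0.0555) or 72 h 1d (0.0755).

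Several genes, picked among small p-values, had all 8 sham arrays on 1 side of naive without passing the threshold. The share of all tested genes that separate in this way is not given here. The separation alone therefore does not mark a sham effect. Decorin (Dcn), a small proteoglycan of collagen matrix that is made by meningeal fibroblasts, had sham signals of 1114 to 1957 (median 1533) and naive signals of 906 and 770, a log2 difference of 0.85 ± 0.16 SE (adjusted p = 0.0519). Btg2, an antiproliferative immediate early gene, was very even at 1408 to 1545 (median 1484) on sham arrays and 2584 and 2197 in naive cortex, a difference of -0.69 ± 0.16 SE (adjusted p = 0.168). Proenkephalin (Penk), an opioid peptide precursor that is abundant in striatum, had 7266 to 10000 (median 8163) in sham cortex and 11640 and 15524 in naive cortex, with -0.71 ± 0.14 SE (adjusted p = 0.0527). Dynlrb1, a light chain of the dynein motor, had 3594 to 8098 in sham cortex and 1910 and 2312 in naive cortex, with 1.23 ± 0.25 SE (adjusted p = 0.0805).

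The counts of calls in the whole sham mean rested on single arrays and on the processing. Of the 4 genes called, 1 kept its call without the sham 4 h arrays and 2 kept it with averaged probe sets. Leaving out sham 4 h 1b gave 0 calls, naive 2a 1 call, sham 72 h 1d 2 calls, sham 8 h 1b 2 calls, sham 72 h 1c 9 calls, naive 1a 12 calls and sham 24 h 1c 19 calls. With the pair of each sham time averaged to 1 sample, none of the 4 genes was called and each had an adjusted p of 0.0726.

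**Figure D2:**
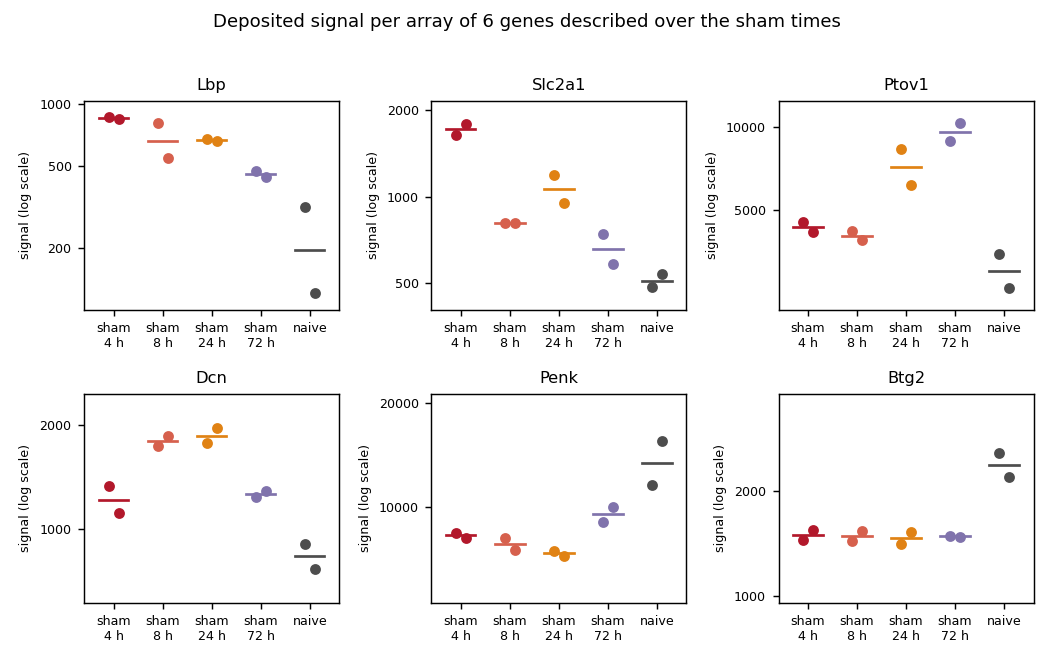
Each point is the deposited signal of 1 array (log scale) for Lbp, Slc2a1, Ptov1, Dcn, Penk and Btg2, at 4 sham times and in naive cortex, and each bar is the geometric mean of the 2 arrays. All 8 sham arrays lie above both naive arrays for Lbp, Slc2a1, Ptov1 and Dcn and below both for Penk and Btg2, with Slc2a1 highest at 4 h (1634 and 1791) and Ptov1 highest at 72 h (8921 and 10421).

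Sham 4 h against naive cortex gave the largest count of the 4 times. In all, 20 genes rose (0.308% of those tested) and 15 fell (0.231%), and all 35 had groups that did not overlap. With 2 arrays on each side, this separation comes from the same values as the call. It is no further support, here or for the single genes below, and its share over all genes is not given. Without the pituitary list 15 rose and 14 fell. The rises were immediate early and activity-regulated genes (Fosb, Bdnf, Gadd45b, Gem), chemokines (Ccl2, Cxcl1), acute-phase and cytokine-feedback genes (Lbp, Cebpd, Socs3), the cell cycle inhibitor Cdkn1a, the vascular or hypoxia-linked genes Slc2a1, Efna1 and Adm, and also Sertad1 and Wdr92. The count was 8 without sham 4 h 1b, 22 without 1c, 13 without naive 2a and 29 without naive 1a. Among the 29 genes outside the pituitary list, Slc2a1 and Gadd45b stayed called under every alternative that was run.

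Fosb, an AP-1 transcription factor that neuronal activity induces, had 6126 and 6455 at sham 4 h and 1100 and 1131 in naive cortex. At 8, 24 and 72 h the signals were 938 to 1233, about the naive level. The 4 h difference was 2.5 ± 0.47 SE (5.64-fold, adjusted p = 0.0122), and it was the same size but not called when the sham pairs were averaged (adjusted p = 0.217). Without any 1 of the 4 arrays compared, its adjusted p lay between 0.091 and 0.125.

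Bdnf, the neurotrophin that activity induces in cortical neurons, had 5780 and 6277 at sham 4 h, 3432 and 2149 at 8 h, 2473 and 1869 at 24 h, 1958 and 2116 at 72 h, and 1724 and 1590 in naive cortex. Each of the 8 sham arrays was above both naive arrays, by far the most at 4 h, where the difference was 1.86 ± 0.32 SE (3.64-fold, adjusted p = 0.00608). Over all sham times it was 0.81 ± 0.25 SE and not called (adjusted p = 0.252). The 4 h call was lost without sham 4 h 1b (adjusted p = 0.0594), 1c (0.0618) or naive 2a (0.0837).

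Gadd45b, a stress sensor that takes part in active DNA demethylation in stimulated neurons, had 1940 and 1744 at sham 4 h and 333 and 399 in naive cortex. The later sham arrays had 235 to 427, on both sides of the naive pair. The 4 h difference was 2.33 ± 0.32 SE (5.05-fold, adjusted p = 0.00061). A second probe set of the gene differed by 1.1. Gem, a small GTPase that restrains calcium channels and is itself an early gene, had 203 and 213 at sham 4 h and 44 and 24 in naive cortex, a difference of 2.69 ± 0.51 SE (adjusted p = 0.0122). The Gem call was lost without naive 2a (adjusted p = 0.207), sham 4 h 1b (0.128) or 1c (0.0991).

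Ccl2, the chemokine that draws monocytes, had 304 and 203 at sham 4 h, against 14 and 69 in naive cortex, and 10 to 39 on the later sham arrays. Several of the low values lay under the floor of 24.1, so that the fitted 2.61 ± 0.42 SE (adjusted p = 0.00299) depends on the floor. Cxcl1, a neutrophil-attracting chemokine, had 295 and 365 at sham 4 h, 19 to 159 on the later sham arrays, and 60 and 31 in naive cortex (2.93 ± 0.63 SE, adjusted p = 0.0333). Neither chemokine had a later sham array as high as the sham 4 h pair. The Cxcl1 call was lost when any 1 of the 4 arrays was left out, with adjusted p of 0.0606 to 0.381. The Ccl2 call was lost without naive 1a (adjusted p = 0.0588) or sham 4 h 1b (0.0789).

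Cebpd, a transcription factor of the acute-phase response, had 866 and 791 at sham 4 h, 328 to 428 on the later sham arrays, and 375 and 309 in naive cortex. The difference at 4 h was 1.28 ± 0.2 SE (2.43-fold, adjusted p = 0.00217). Socs3, the feedback inhibitor of STAT3 signalling, had 288 and 306 at sham 4 h and 122 and 56 in naive cortex (1.84 ± 0.34 SE, adjusted p = 0.0115). Lbp was 2.12 ± 0.35 SE higher at this time (adjusted p = 0.00376). The calls of these 3 genes of acute-phase signalling were each lost without naive 2a. Each was also lost without sham 4 h 1b, with adjusted p of 0.0585, 0.106 and 0.0594, and that of Socs3 without 1c (0.0968).

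Cdkn1a, the p21 inhibitor of cyclin-dependent kinases, had 1029 and 891 at sham 4 h, 327 to 400 on the later sham arrays, and 412 and 336 in naive cortex. The difference was 1.36 ± 0.25 SE (2.57-fold, adjusted p = 0.00892), and a second probe set differed by 0.6. With both probe sets averaged it was 0.98 and not called (adjusted p = 0.119), and the call was lost without naive 2a (0.136) or sham 4 h 1b (0.161).

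Slc2a1 at 4 h averaged 1710 ± 111 in sham cortex and 511 ± 37.5 in naive cortex (SD, n = 2 each), a difference of 1.74 ± 0.21 SE (3.35-fold, limma adjusted p = 0.000146). Efna1, an ephrin ligand of endothelial and neural cells, had 321 and 229 at sham 4 h, 43 to 96 on the later sham arrays, and 48 and 42 in naive cortex (2.59 ± 0.42 SE, adjusted p = 0.00376). Adrenomedullin (Adm), a vasodilator peptide induced by hypoxia and cytokines, had 136 and 125 at sham 4 h and 34 and 36 in naive cortex (1.9 ± 0.42 SE, adjusted p = 0.0376). Adm was dim, and with a floor at the 25th percentile its difference was 0.72 and not called (adjusted p = 0.543). Its call was lost without any 1 of the 4 arrays (adjusted p 0.163 to 0.34). Efna1 lost its call without naive 2a (adjusted p = 0.0571) or sham 4 h 1b (0.106).

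**Figure D3:**
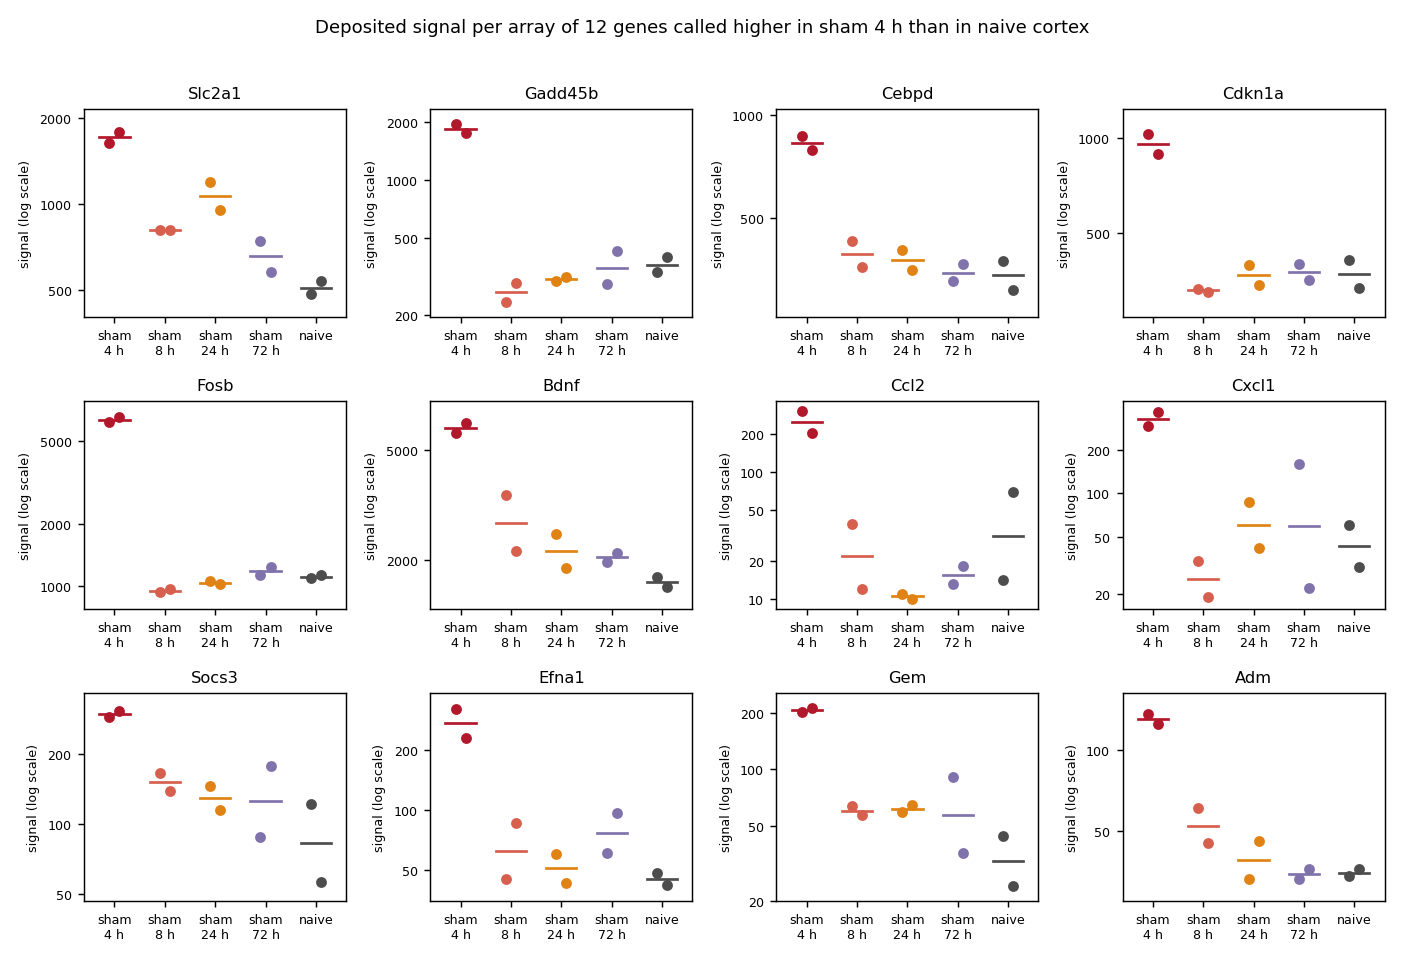
Each point is the deposited signal of 1 array (log scale) for 12 genes called higher at sham 4 h than in naive cortex, and each bar is the geometric mean of the 2 arrays of a group. In all 12 panels both sham 4 h points lie above every later sham point and both naive points, and Slc2a1 and Bdnf keep their later sham points above naive as well.

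The 15 genes that fell at sham 4 h were Snrpb, Tyms-ps, Strn4, Jund, Th, Ywhaz, Mt3, Ckb, Cav3, Atf6b, Gh, Aldoa, Tuba1a, Ncdn and Uchl1. Several are among the brightest genes of neural tissue: Ckb (brain creatine kinase), Aldoa (a glycolytic aldolase), Tuba1a (an alpha tubulin), Uchl1 (a neuronal deubiquitinase), Ncdn (neurochondrin) and Mt3 (the brain metallothionein). Ckb had 5359 and 4296 at sham 4 h and 14003 and 12881 in naive cortex, a difference of -1.48 ± 0.28 SE (adjusted p = 0.0122). Jund, the AP-1 member that is expressed at rest, had 3216 and 2499 at sham 4 h and 15521 and 14319 in naive cortex (-2.39 ± 0.43 SE, adjusted p = 0.00935). For Ckb and Jund all 8 sham arrays lay below both naive arrays. The share of all tested genes that separate in this way is not given. Of the 100 brightest tested genes, 75 were lower in the sham mean, so this separation alone does not mark a fall of the 2 genes.

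The bright end of the arrays moved with these falls. The 99th percentile of the signal was 8809 and 9962 at sham 4 h, 11970 and 11060 at 8 h, 11380 and 9052 at 24 h, 11020 and 12180 at 72 h, and 12480 and 12140 in naive cortex. It was also low on the injury 4 h arrays (8279, 8068 and 8205). Against naive, Ckb (-1.74), Mt3 (-1.86), Tuba1a (-1.21), Ncdn (-1.1) and Aldoa (-0.95) were called lower at injury 4 h too. So were Ywhaz (-2.89), Strn4 (-3.21), Jund (-1.77) and Atf6b (-0.96), while Uchl1 (-0.46) was not. Of the 100 brightest tested genes, 85 were lower at sham 4 h than in naive cortex, with a median log2 difference of -0.307, against 0.0229 for all genes. At 24 h 83 of them were lower (median -0.237), at 8 h 57 and at 72 h 61. After quantile normalization, which gives every array the same distribution, Ncdn differed by -0.23 (adjusted p = 0.672), Tuba1a by -0.35 (adjusted p = 0.437), Aldoa by -0.56 (adjusted p = 0.246), Uchl1 by -0.62 (adjusted p = 0.0801) and Mt3 by -1.09 (adjusted p = 0.123), and none of these 5 was called. Ywhaz (-1.79), Jund (-2.11), Ckb (-1.22), Strn4 (-2.68) and Atf6b (-1.23) kept their calls under that scaling. The call of Jund was lost without any 1 of the 4 arrays (adjusted p 0.0594 to 0.107), and so was that of Ckb (0.0636 to 0.162).

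Snrpb, a core spliceosome protein, gave the most extreme value. Its probe set had 23 and 39 at sham 4 h, 3671 and 2512 at 8 h, 3444 and 50 at 24 h, 7574 and 4194 at 72 h, and 12819 and 12202 in naive cortex. The injury 4 h arrays were also low, with 201, 48 and 84. The pair of sham 24 h arrays differed more from each other than from other groups, and the low one, 1d, also had the lowest 99th percentile of the 24 h pair. The log2 difference at 4 h was -8.67 ± 1.34 SE (adjusted p = 0.00224), with a sham signal at the floor on 1 array, and the adjusted p was 0.0585 without sham 4 h 1b. The probe set has the suffix _r_at, which the array maker gave to sets designed under relaxed rules. A second probe set of Snrpb did not pass the filter on dim signals and differed by 0.27.

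**Figure D4:**
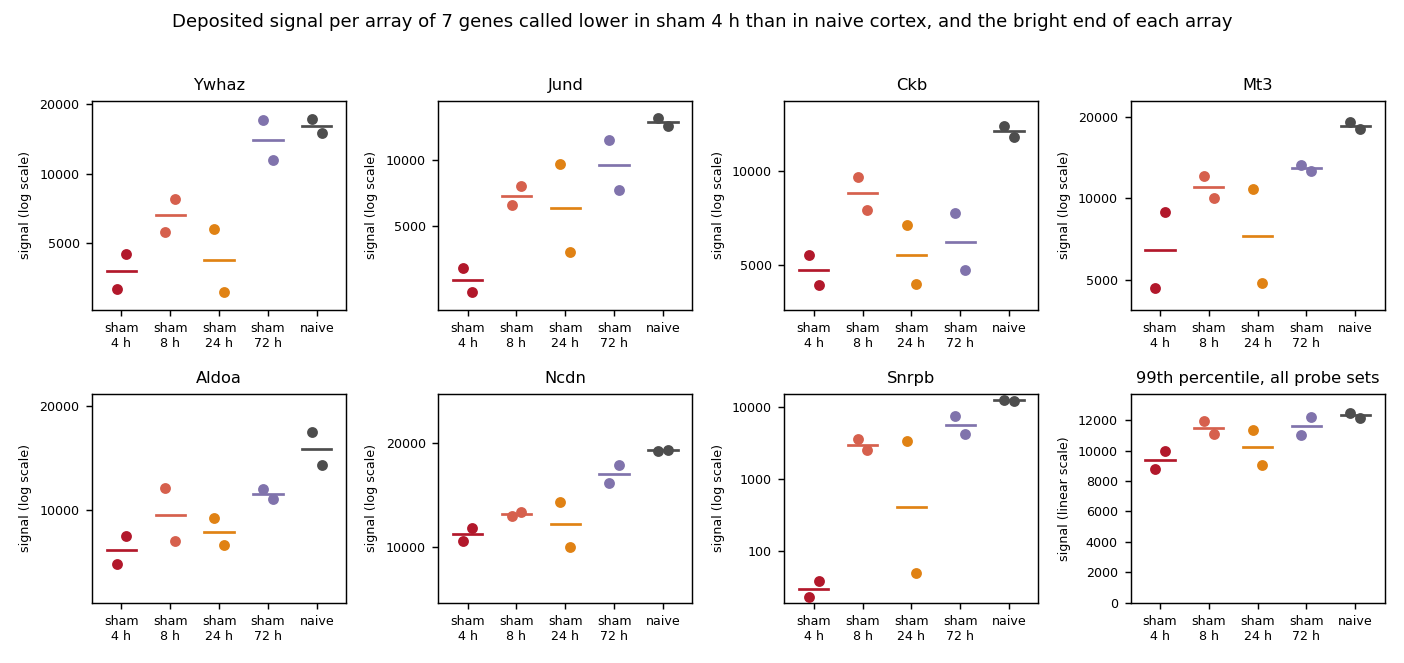
Each point is 1 array, for 7 genes called lower at sham 4 h than in naive cortex (deposited signal, log scale) and, in the last panel, for the 99th percentile of the signal over all probe sets (linear scale from 0), and each bar is the mean of the group (geometric on log axes). The sham 4 h pair and sham 24 h replicate 1d have the lowest 99th percentiles (8809, 9962 and 9052), and the same 3 arrays are among the lowest in the gene panels.

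At 8 h no gene was called against naive cortex (0% of 6499), although 771 had an unadjusted p below 0.05 and the smallest adjusted p was 0.0925. The count was 9 without sham 8 h 1c, 4 without naive 1a and 1 without naive 2a. The smallest p-values belonged to Timp1, an inhibitor of matrix metalloproteinases, and Dcn. Timp1 had 308 and 447 at sham 8 h and 1110 and 1063 in naive cortex (-1.55 ± 0.27 SE, adjusted p = 0.0925), while at the other sham times its signals were 793 to 1432. Dcn had 1738 and 1858 at sham 8 h and 906 and 770 in naive cortex (1.1 ± 0.2 SE, adjusted p = 0.0925).

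At 24 h Ptov1 and Dcn rose and Ywhaz fell, 3 genes (0.0462%). Dcn had 1767 and 1957 at sham 24 h and 906 and 770 in naive cortex, a difference of 1.15 ± 0.2 SE (2.23-fold, adjusted p = 0.0362). Ptov1 differed by 1.27 ± 0.21 SE (adjusted p = 0.0294) and Ywhaz by -1.93 ± 0.32 SE (adjusted p = 0.0294). Bright genes were lower at this time too, and after quantile normalization Ywhaz differed by -1.64 and was not called (adjusted p = 0.0605). Slc2a1 differed by 1.06 ± 0.21 SE and Lbp by 1.77 ± 0.35 SE, both with adjusted p = 0.083. The count was 1 without naive 2a, 7 without naive 1a and 15 without sham 24 h 1c. Dcn was not called when any 1 of the 4 arrays was left out, with adjusted p of 0.0548 to 0.265. Ptov1 was not called without 24 h 1c (0.126) or naive 2a (0.253), nor Ywhaz without 24 h 1d (0.265), naive 2a (0.095) or naive 1a (0.113).

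At 72 h Ptov1 was the 1 gene called (0.0154%), and 478 genes had an unadjusted p below 0.05. Some genes raised at 4 h overlapped naive at this time: Fosb had 1129 and 1233, against 1100 and 1131, Cebpd had 328 and 366, against 375 and 309, and Ccl2 had 13 and 18, against 14 and 69. Lbp, Bdnf and Efna1 did not overlap naive at 72 h and were not called, with log2 differences of 1.22 (adjusted p = 0.619), 0.3 (0.882) and 0.76 (0.702). The array that stood apart decided the count. Without 72 h 1d there were 0 calls (Ptov1 1.58, adjusted p = 0.0534; 0.0503 without naive 2a), and without 72 h 1c, where 1d alone stood for the time and its spread was taken from the other groups, there were 359.

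The sham times were tested against each other directly. Sham 8 h against sham 4 h gave 22 genes that fell (0.339%) and 2 that rose (0.0308%), of which 16 and 2 were outside the pituitary list. Gadd45b fell to 235 and 293 at 8 h, against 1940 and 1744 at 4 h (-2.81 ± 0.32 SE, adjusted p = 0.000115). Also lower at 8 h were Ccl2 (-3.02 ± 0.42 SE, adjusted p = 0.000675), Cxcl1 (-3.52 ± 0.63 SE, adjusted p = 0.00978) and Fosb (-2.72 ± 0.47 SE, adjusted p = 0.00763), along with Cdkn1a, Cebpd, Slc2a1 and Efna1. Wdr92, Zfpm1, Tubb6, Timp1 and the cyclin F gene Ccnf also fell. The 2 rises were Snrpb and Cav3, the muscle caveolin, which had 256 and 204 at 8 h and 84 and 71 at 4 h. The count was 7 without sham 4 h 1c, 13 without 4 h 1b, 13 without 8 h 1b and 15 without 8 h 1c. Fosb, Cxcl1, Slc2a1, Cav3 and Snrpb were not called without any 1 of the 4 arrays, with adjusted p of 0.0603 to 0.262, and Cebpd was not called without 4 h 1b (0.163), 4 h 1c (0.0909) or 8 h 1c (0.122). The same held for Tubb6 (0.099 to 0.216) and Ccnf (0.0815 to 0.236) without any 1 of the 4 arrays, for Efna1 without either 4 h array or 8 h 1b (0.105 to 0.34), for Zfpm1 without the same 3 arrays (0.0533 to 0.196), for Wdr92 without 4 h 1c (0.104) or 8 h 1c (0.0713), and for Cdkn1a without 4 h 1b (0.0753).

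Some genes fell at 8 h although they had not differed from naive at 4 h by the threshold. Ccl3, a macrophage inflammatory chemokine, had 65 and 33 at 8 h and 231 and 259 at 4 h (-2.4 ± 0.37 SE, adjusted p = 0.00287), and its naive signals were 175 and 136. The guanylate-binding protein Gbp2, an interferon response gene, had 37 and 14 at 8 h and 121 and 195 at 4 h (-2.36 ± 0.38 SE, adjusted p = 0.00364), with 106 and 87 in naive cortex. Timp1 was lower at 8 h than at 4 h (-1.38 ± 0.27 SE, adjusted p = 0.021) and also than in naive cortex in signal. In Ccl3, Gbp2 and Timp1 the 8 h arrays were the lowest or among the lowest uninjured arrays. Nptx2, an activity-regulated pentraxin of excitatory synapses, had 591 and 689 at 8 h and 2484 and 2362 at 4 h (-1.92 ± 0.4 SE, adjusted p = 0.0313), with 964 and 759 in naive cortex. Nptx2 was not called without any 1 of the 4 arrays (adjusted p 0.116 to 0.27), Ccl3 not without 4 h 1c (0.0672) or 8 h 1c (0.0714), Gbp2 not without 4 h 1c (0.108) or 8 h 1c (0.0714), and Timp1 not without 4 h 1c (0.308) or 8 h 1b (0.329).

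From 8 to 24 h 1 gene was called (0.0154%): Timp1 rose to 1432 and 1095 at 24 h, against 308 and 447 at 8 h (1.75 ± 0.27 SE, adjusted p = 0.0206), and it was not called without either 24 h array or without 8 h 1b (0 calls each). Between 24 and 72 h none was called (0%), with 476 genes at an unadjusted p below 0.05 and a smallest adjusted p of 0.167, for Ywhaz. Without 72 h 1c that count was 383, without 24 h 1c it was 5, and without 72 h 1d it was 0.

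Sham 72 h against sham 4 h gave 15 genes that fell (0.231%) and 5 that rose (0.0769%), or 9 and 4 without the pituitary list. Slc2a1 had 742 and 581 at 72 h and 1634 and 1791 at 4 h (-1.38 ± 0.21 SE, adjusted p = 0.00187). Bdnf fell by 1.57 on the log2 scale (SE 0.32, adjusted p = 0.0333). Ptov1 rose by 1.16 ± 0.21 SE (adjusted p = 0.0109), and Ywhaz, Cav3 and Snrpb were the other rises outside the pituitary list. Leaving out 72 h 1d gave 8 calls, 4 h 1b 11, 4 h 1c 12 and 72 h 1c 593. Bdnf and Ptov1 lost their calls without 72 h 1d or either 4 h array (adjusted p 0.097 to 0.286), and Slc2a1 without 72 h 1d (0.0503). An F-test of any difference among the 4 sham times called 23 genes (0.354%), 17 of them outside the pituitary list. The F-test count was 10 without 4 h 1c, 13 without 4 h 1b and 324 without 72 h 1c. With the 2 arrays of each time averaged, 2 genes were called at 8 h against 4 h, 1 at 72 h against 4 h and 0 in the F-test.

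The injury 4 h arrays stood beside sham 4 h as a scale for these signals. Injury against sham at 4 h called 55 genes (0.846%), and 36 without sham 4 h 1b or 18 without 1c. Fosb had 9565, 9279 and 8339 at injury 4 h, against 6126 and 6455 at sham 4 h, a difference of 0.52 with adjusted p = 0.81. Bdnf (8906, 6720 and 5839, against 5780 and 6277; adjusted p = 0.907), Gadd45b (3235, 4111 and 2605, against 1940 and 1744; adjusted p = 0.302) and Cdkn1a (1642, 1458 and 1470, against 1029 and 891; adjusted p = 0.274) were not called either. Slc2a1 had 2432, 2872 and 2130 after injury (adjusted p = 0.312). For Fosb, Gadd45b, Cdkn1a and Slc2a1 all 3 injury arrays were nonetheless above both sham arrays, and a missed threshold with 3 and 2 arrays does not show equal levels.

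Other genes raised at sham 4 h were far higher after injury. Cebpd had 3540, 2880 and 3202 at injury 4 h, against 866 and 791 at sham 4 h (1.95 ± 0.18 SE, adjusted p = 7.13e-06). Ccl2 had 1561, 1101 and 1242, against 304 and 203 (2.37 ± 0.38 SE, adjusted p = 0.00188), and Socs3 had 924, 879 and 817, against 288 and 306 (1.56 ± 0.31 SE, adjusted p = 0.016). In the same injury arrays the pituitary gene Prl was at 346, 297 and 436, the level of naive cortex. Gadd45b was 3.03 higher on the log2 scale at injury 8 h than at sham 8 h (adjusted p = 1.52e-06). Lbp did not follow this order, as its injury 4 h signals (502, 691 and 867) overlapped those of sham 4 h (864 and 850), with adjusted p = 0.838. Ptov1 had 7731, 7601 and 8247 at injury 72 h, against 8921 and 10421 at sham 72 h (-0.3, adjusted p = 0.359), so that at 72 h its sham and injury arrays were all above naive.

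Lists of genes grouped by function were described by counts and medians. Over all 6499 genes 0.308% rose and 0.231% fell at 4 h. The shares called were 0% at 8 h, 0.0462% at 24 h and 0.0154% at 72 h. Of 29 tested immediate early genes, 3 rose at sham 4 h (Fosb, Bdnf, Gadd45b) and 1 fell (Jund), 21 had a difference above 0, and the median was 0.472 on the log2 scale. At 8, 24 and 72 h the medians were -0.0563, -0.0454 and -0.037 and none was called. Medians over all genes tested were between -0.0177 and 0.0229 in these contrasts. All times share the 2 naive arrays. Of 17 cytokines and chemokines, 2 rose at 4 h (Ccl2 and Cxcl1) with a median of 0.342, and the later medians were -0.0774, -0.196 and -0.0869. Reactive astrocyte markers (16 tested) had 1 call at 4 h, Socs3, a median of 0.447 at that time and later medians of -0.0665, -0.0668 and 0.0453.

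Glucocorticoid-induced genes were listed because anaesthesia and surgery raise corticosterone. Of 22 tested, Cdkn1a and Cebpd rose at 4 h, which are also stress and acute-phase genes, and the median was 0.171. Those with small p for the whole sham mean did not pass. Fkbp5, a chaperone of the glucocorticoid receptor and a sensitive target of it, had 1401 and 1707 at sham 4 h, 1105 and 1322 at 8 h, 1432 and 1395 at 24 h, 1070 and 1374 at 72 h, and 1029 and 1027 in naive cortex (0.38 ± 0.15 SE over all times, adjusted p = 0.38). Zbtb16, another target, had 2865 to 4711 (median 3977) on sham arrays and 2319 and 2769 in naive cortex (0.59 ± 0.2 SE, adjusted p = 0.308). The clock gene Per2, which glucocorticoids also induce, had 271 to 503 on sham arrays and 209 and 252 in naive cortex (0.66 ± 0.25 SE, adjusted p = 0.378). In these 3 genes, picked for small p-values, all 8 sham arrays were above both naive arrays, by small amounts. Cebpd and Cdkn1a of the same list overlapped naive over all sham times. The side of the other members is not given here, so the 3 genes do not stand for the list.

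Heat shock genes (17 tested) had no call, with 14 above 0 for the whole sham mean and medians of 0.221, 0.209, 0.232 and 0.165 at 4, 8, 24 and 72 h. The median of all tested genes for the sham mean was -0.00185. The endoplasmic reticulum chaperone Hspa5 had 3859 to 5527 on sham arrays and 3046 and 3270 in naive cortex (0.5 ± 0.15 SE, adjusted p = 0.248). Hypoxia and glycolysis genes (18 tested) had Slc2a1 and Adm higher and Aldoa lower at 4 h, with a median of 0.0166. No member was called against naive at any time among the cell type lists of microglia (19), oligodendrocytes and myelin (9), inhibitory neurons (16) or astrocytes (12), the complement genes (9), the antigen presentation genes (14) or the interferon response genes (12). The microglial complement gene C1qb, for example, had 1150 to 1715 on sham arrays and 1510 and 1653 in naive cortex. Over all tested genes only 0.308% rose and 0.231% fell at 4 h. No call in lists of this size is near that share and does not show that these genes did not respond. In bulk tissue fewer cells of a type and less RNA per cell cannot be told apart.

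The complement, interferon, antigen presentation and neutrophil lists had medians above 0 at 4 h and below 0 at 8 h, with no member called against naive. Over all tested genes the median was 0.0229 at 4 h, -0.0154 at 8 h and 0.0166 at 24 h. The share of all genes above 0 is not given here. Members of a list can vary together, so the counts below are descriptions only. Complement genes had 7 of 9 differences above 0 at 4 h (median 0.0897) and 0 of 9 at 8 h (median -0.32). Interferon response genes had 8 of 12 above 0 at 4 h (median 0.142), 3 of 12 at 8 h (median -0.342) and 0 of 12 at 24 h (median -0.319). Antigen presentation genes had 9 of 14 above 0 at 4 h (median 0.053) and 3 of 14 at 8 h (median -0.293). Neutrophil markers had all 5 above 0 at 4 h (median 0.775) and 2 of 5 at 8 h (median -0.274). These times share the naive pair, and the 8 h values against 4 h were called for single genes only, such as Gbp2.

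In the remaining lists few members passed. Endothelial and pericyte markers (20 tested) had Slc2a1 higher at 4 h, with a median of -0.0828, and meningeal, fibroblast and matrix genes (20 tested) had Dcn higher at 24 h, with a median of 0.12. Cell death and p53 genes (13 tested) had Cdkn1a and Gadd45b higher at 4 h (median 0.234), oxidative stress genes (19 tested) had Mt3 lower (median 0.153), and neurotrophins and activity-regulated peptides (15 tested) had Bdnf higher (median 0.228). No member was called against naive in the lists of circadian clock genes (18 tested), cholesterol synthesis (13), oxidative phosphorylation (31), cell cycle (23), synaptic and channel genes (20), skeletal muscle (13), hypothalamus peptides (5), hippocampus and thalamus (10), red blood cells (4) or oligodendrocyte precursors (3). With so few of all tested genes called, no call in these lists does not show an absence of response. The neuron markers (19 tested) had Ncdn lower at 4 h and a median of -0.188.

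**Figure D5:**
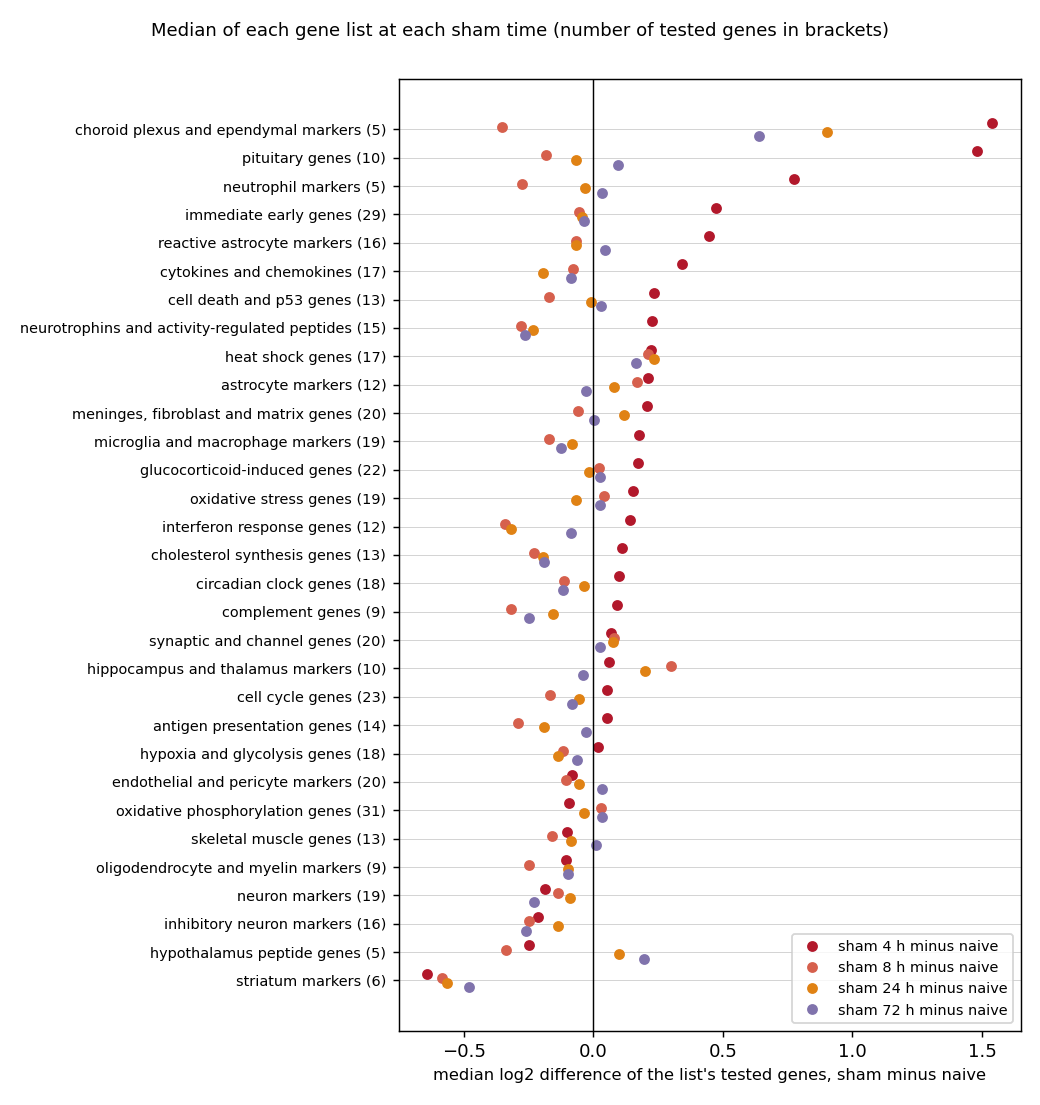
Each point is the median log2 difference of the tested genes of 1 list between 1 sham time and naive cortex, for the 31 lists with at least 5 tested genes, with the number of genes in brackets. The 4 h points of immediate early genes (0.472), reactive astrocyte markers (0.447) and cytokines and chemokines (0.342) lie to the right of the later points, and the striatum markers lie to the left at all 4 times (-0.642 to -0.481).

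Signals of markers of tissue next to the cortex are described here, without a test of the lists. The share of all tested genes that were lower in the sham mean is not given, and every comparison uses the same naive pair. Of 7 striatum markers on the array, 6 passed the filter, and all 6 were lower in the sham mean than in naive cortex, with a median of -0.616 and none called. Their summed signal was 13190 to 17210 on sham arrays and 19750 and 25950 in naive cortex, and Penk made up the larger share of it. Pde1b, a phosphodiesterase enriched in striatum, had 2924 to 4582 on sham arrays and 5484 and 7292 in naive cortex (-0.7 ± 0.16 SE, adjusted p = 0.124). The dopamine receptor gene Drd2 had 214 to 441 on sham arrays and 435 and 665 in naive cortex, which overlapped (adjusted p = 0.195).

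Choroid plexus and ependymal markers (5 tested of 7 on the array) had a median of 1.54 at sham 4 h, with no call. Transthyretin (Ttr), the main secreted protein of the choroid plexus, had 6654 and 7513 at sham 4 h, 668 and 612 at 8 h, 5986 and 4341 at 24 h, 1258 and 1289 at 72 h, and 1352 and 494 in naive cortex. Its sham 4 h and 24 h arrays were far above the rest, yet the adjusted p at 4 h was 0.189, since other groups of the fit also spread widely (658, 3782 and 5458 at injury 4 h). The part of such neighbouring tissue in the sham differences was not tested.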

How the data were processed

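The authors deposited a linear intensity for each of 12488 mouse probe sets on every oligonucleotide array; the software that made these deposited intensities is not given in the sources used here. Groups came from the sample descriptions. For this report the intensities were floored at the pooled 10th percentile (24.1) and taken as log2 of the deposited values. Probe sets above the pooled 40th percentile (193) on at least 2 arrays passed, controls (66) and probe sets with several symbols (396) or none (1193) were left out, and the probe set with the highest mean stood for a gene. limma 3.58.1 in R 4.3.3 fitted 1 mean per group over 22 mouse arrays with a variance trend (13 residual degrees of freedom), with Benjamini-Hochberg adjustment within a contrast. Means of group means made the sham contrast.

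The sham and naive arrays and the 33 gene lists were chosen with earlier results of these data known. Named genes were the largest called changes with groups that did not overlap (12 each way for the sham mean, 8 for other contrasts), up to 4 called members of a list and its 3 smallest p-values, and the 6 smallest p-values where fewer than 6 genes were called. The text prints part of these. Symbols are those of the platform annotation. The fit was tested on simulated data. Alternatives were averaged probe sets, quantile normalization, a 25th percentile floor, no filter, uninjured arrays alone, averaged sham pairs, no trend, no sham 4 h arrays, the title letter as a block and leaving out each array; calls without the pituitary list were added after the data were seen. Rat arrays were not used. Plots used Python 3.11.15 and matplotlib 3.10.9.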

Additional observations from a re-analysis of the deposited data

Results flagged for a closer look

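Sham times differed from each other in single genes by the test of the difference itself. At 8 h against 4 h the log2 differences were -2.81 for Gadd45b, -3.02 for Ccl2, -3.52 for Cxcl1, -2.72 for Fosb, -2.4 for Ccl3, -2.36 for Gbp2, -2.12 for Efna1 and -1.92 for Nptx2, and 1.56 for Cav3 and 6.63 for Snrpb. Timp1 differed by 1.75 at 24 h against 8 h. At 72 h against 4 h the values were -3.37 for Ccl2, -2.41 for Fosb, -2.39 for Gadd45b, -2.18 for Gbp2, -1.57 for Bdnf, -1.38 for Slc2a1, -1.34 for Cdkn1a and -1.26 for Cebpd. In the same contrast they were 1.16 for Ptov1, 1.74 for Cav3, 1.89 for Ywhaz and 7.52 for Snrpb. The values of Ccl2 and Snrpb depend on the floor of 24.1, since both 72 h arrays and 1 of the 8 h arrays of Ccl2 and 1 of the 4 h arrays of Snrpb lay under it. The 8 h values of Cxcl1 and Gbp2 do too, with 1 of the 8 h arrays under it in each. With 2 arrays in a group, no group was large enough for a test of single outlying arrays.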

How the results depend on the processing

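Counts of called genes moved by more than 1.5 times as follows, with the reported counts first. The sham mean against naive (4) gave 0 with no filter, 0 with only the 10 uninjured arrays, 0 with averaged sham pairs, 0 with no trend, 2 with averaged probe sets and 1 without the sham 4 h arrays. At 4 h (35) the 10 uninjured arrays gave 19. At 24 h (3) the counts were 0 with no filter, 0 with the uninjured arrays, 0 with averaged pairs, 1 with averaged probe sets, 1 with no trend and 5 without the sham 4 h arrays. At 72 h (1) they were 0 with the uninjured arrays and 0 with averaged pairs. For 8 against 4 h (24) they were 11 and 2, and for 24 against 8 h (1) they were 0 and 0, with 3 under no filter and 0 under no trend. For 72 against 4 h (20) averaged pairs gave 1, and 13 calls lay outside the pituitary list. Injury against sham at 4 h (55) gave 19 with averaged pairs. The F-test (23) gave 9 with the uninjured arrays and 0 with averaged pairs.

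The title letter as a fixed replicate block gave 2 calls at 24 against 8 h, 1 at 72 against 24 h, 9 at 72 against 4 h, 15 in the F-test and 26 at 8 against 4 h. As a random block it gave 4, 35, 0, 3 and 1 calls for the contrasts with naive and a consensus correlation of 0.0118. Arrays of the same letter deviated with r = -0.0655 (4 and 8 h) and -0.0951 (24 and 72 h), which does not show pairing by letter among sham arrays and says nothing of sham against naive, where the letters do not overlap.

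Leaving out 1 array gave 0 to 19 calls for the sham mean, 8 to 29 at 4 h, 0 to 9 at 8 h, 1 to 15 at 24 h and 0 to 359 at 72 h against naive. It gave 7 to 15 for 8 against 4 h, 0 to 3 for 24 against 8 h, 0 to 383 for 72 against 24 h, 8 to 593 for 72 against 4 h, 10 to 324 in the F-test and 18 to 36 for injury at 4 h. Where an array was left out, the lone array of its group was assumed to vary like the other groups.

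Of 228 results for single genes, 215 kept their sign under all alternatives run. In the sham mean the sign turned for Lcn2 (0.18), Mbp (0.19), Bcan (0.03), Pvalb (0.03) and H2-DMa (0.02) with averaged probe sets, for Cx3cl1 (0.07) and Stmn1 (0.06) after quantile normalization, and for S100a9 (-0.1), Camp (-0.09) and Pomc (-0.02) without the sham 4 h arrays. Leaving out 1 array gave values between -0.09 and 0.46 for S100a9, between -0.46 and 0.03 for Gal, between -0.14 and 0.39 for Camp and between -0.3 and 1.04 for Foxj1. Prxl2a turned at 72 against 24 h with averaged probe sets (0.22). None of these results was called as reported, and the causes were not tested.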
